A study of Mus musculus with 2 samples.

Results

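The cells described here are microglia of a small droplet experiment in which transcripts of 8 immediate early genes made up a high share of the cell's RNA, Fos, Fosb, Egr1, Jun, Junb, Atf3, Ier2 and Dusp1. A cell was taken when these genes together gave at least 5 unique molecular identifiers (UMIs, tags that count captured RNA molecules) and at least 0.3% of all its UMIs. The rule was met by 52 of 20222 cells, 30 of 9860 in the plasma-negative and 22 of 10362 in the plasma-positive library, and they are called rule cells below. Microglia had been sorted from the hypothalamus of young wild-type mice 20 hours after an injection of plasma protein that carried a dye. Several mice were pooled, so no animal can be followed. Cells with the dye formed the plasma-positive group and cells without it the plasma-negative group, and each group was 1 library of the Chromium 3' v3.1 chemistry. Both groups had received the injection, so neither is an untreated control.

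Immediate early genes are transcribed within minutes of a stimulus, from promoters that are already poised, and need no newly made protein. Their products include the subunits of the AP-1 transcription factor (Jun, Junb, Fos, Fosb), the zinc finger factor Egr1, the stress-induced factor Atf3 and the phosphatase Dusp1, which switches the inducing kinases off again. In microglia, the resident macrophages of the brain, such genes are known to be induced by injury and inflammatory signals and also by warm enzymatic dissociation of the tissue.

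The matrices held 9878 cells with 34549522 UMIs and 10390 cells with 42006454 UMIs. Kept cells had 500 UMIs or more, 300 detected genes or more and no more than 10% of UMIs from mitochondrially encoded genes. The median kept cell had 3270.5 UMIs in the plasma-negative and 3753 in the plasma-positive library. Each group had a single library, and cells of a library are no replicates of its condition, so nothing was tested. The 95% intervals in brackets cover counting error only.

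The label of these cells held only in part. Jun and Junb gave 462 of the 791 rule-gene UMIs (58.4%), and every one of the 52 cells had a UMI of 1 or both of them. Fos was found in 6 of the 52 cells, 1 plasma-negative and 5 plasma-positive. All 4 of Fos, Jun, Egr1 and Ier2 were found in 3 cells, and at least 3 of them in 11. The cells are therefore high in Jun and Junb, with Atf3 or Egr1 in 29 of them, and nearly lack Fos. The microglial identity held for the cells as a group: all 11 of a list of microglia markers (among them P2ry12, Tmem119, Cx3cr1 and C1qa) were detected in the rule cells of each library, and each rule cell had at least 5 of them. The poorest plasma-negative rule cell had 25.4 UMIs of these markers per 10000. Among 600 low cells of like depth the lowest value was 95.1. The marker lists of neutrophils, T or NK cells, neurons, astrocytes or tanycytes, mural cells or fibroblasts, ependymal cells and erythroid cells had 0 UMIs in the rule cells of both libraries. Border-associated macrophage markers summed to 3 and 0 UMIs, and those of monocytes to 0 and 1. Oligodendrocyte lineage markers summed to 33 and 6 UMIs.

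Jun, the partner shared by most AP-1 dimers, stood at 1382 CPM (counts for every 1000000 UMIs) in the 30 plasma-negative and 1075 CPM in the 22 plasma-positive rule cells, against 208 and 183 CPM in all kept cells. Junb, a related AP-1 subunit, stood at 1294 and 1292 CPM, against 216 and 208. Each gene thus stood at a like level in the rule cells of either sort and several times above that in all kept cells. Since the rule used these counts, the levels are a description of the choice. Atf3, a factor of the stress response, was at 504 CPM in plasma-negative and 1325 CPM in plasma-positive rule cells, against 23.3 and 23.7 CPM in all kept cells. Egr1 was at 329 and 858 CPM, against 2.75 and 4.41. Ier2, a small nuclear protein of the early response, reached 143 and 239 CPM, against 14.9 and 13.8. Atf3, Egr1 and Ier2 thus stood higher in the plasma-positive rule cells, and part of that came from a single cell. For Ier2 the ratio between the libraries was 1.68 (0.808 to 3.62), an interval that includes 1. These levels too are a description of the choice, since the rule used the counts. Fos was at 21.9 CPM (2 UMIs, in 1 cell) and 76.0 CPM (7 UMIs, in 5 cells), against 0.261 and 0.691 CPM in all kept cells. Fosb and Dusp1 had 2 UMIs each in the rule cells of each library, which is 21.9 and 21.7 CPM. In all kept cells Fosb was at 0.492 and 0.405 CPM and Dusp1 at 2.14 and 2.95 CPM.

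The rule cells were not alike. In the plasma-negative library the share of rule-gene UMIs ran from 0.301% over a median of 0.335% to 0.570%, and 7 of the 30 cells had exactly the minimum of 5 UMIs. In the plasma-positive library it ran from 0.307% over a median of 0.343% to 2.41%. The highest cell held 95 rule-gene UMIs among 3949, of which 48 were Atf3, 22 Egr1, 11 Junb, 7 Ier2, 6 Jun and 1 Fos. The next, at 1.03%, had 28 UMIs of Atf3, and the one after it, at 0.672%, had 18. Jun and Junb gave 72.0% of the rule-gene UMIs in the plasma-negative and 48.2% in the plasma-positive rule cells.

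**Figure D1:**
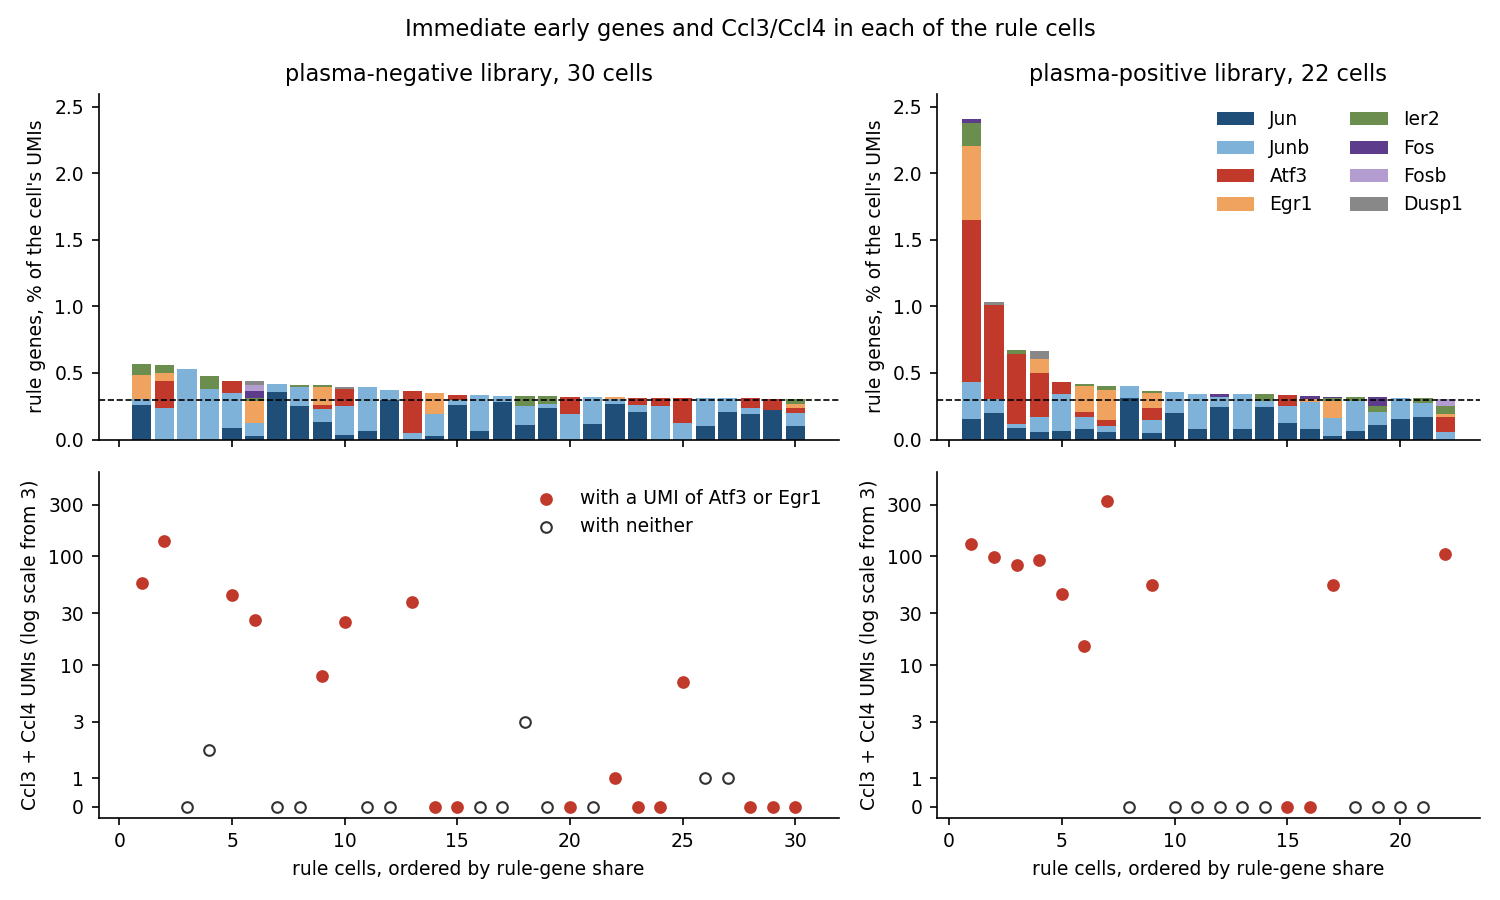
Each column is 1 rule cell, ordered by its share of rule-gene UMIs; the upper panels stack the 8 genes as a percentage of the cell's UMIs (dashed line, the limit of 0.3%), and the lower panels give its Ccl3 plus Ccl4 UMIs, filled where the cell had a UMI of Atf3 or Egr1. Blue (Jun, Junb) is present in all 52 cells, the 4 tallest columns of the plasma-positive library lead with Atf3, and all but 1 of the cells with at least 3 Ccl3 and Ccl4 UMIs are filled.

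The limit cut through a continuous range. In the plasma-negative library 62 cells lay between 0.20% and 0.25%, 30 between 0.25% and 0.30%, and 16 between 0.30% and 0.35%. The plasma-positive library had 45, 14 and 12 cells in the same ranges. Another 10 and 9 cells passed 0.3% with fewer than 5 UMIs and were not taken.

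The share of cells that met the rule was 0.304% (0.205 to 0.434%) in the plasma-negative and 0.212% (0.133 to 0.321%) in the plasma-positive library. With each cell thinned to 2000 UMIs, and 1611 and 1253 shallower cells left out, 48 of 8249 cells (0.582%, 0.429 to 0.771%) and 38 of 9109 cells (0.417%, 0.295 to 0.572%) met it. The intervals overlapped at either depth. The share was thus lower in the plasma-positive library in both counts, and the difference was not tested. The order turned at a limit of 0.5%, with 0.0304% in the plasma-negative and 0.0386% in the plasma-positive library. It also turned with at least 10 rule-gene UMIs, where 13 plasma-negative and 16 plasma-positive cells were left.

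To read each rule gene without its own help, cells were chosen again with the other 7 genes at the same limits, and each was set beside 20 cells with at most 1 UMI of those genes and a like total. Junb was 3.90-fold higher (2.44 to 6.03) in 8 plasma-negative cells so chosen and 4.39-fold higher (2.90 to 6.47) in 7 plasma-positive ones. Jun was 1.75-fold higher (0.883 to 3.16) in 12 plasma-negative cells, an interval that includes 1, and 4.58-fold higher (3.04 to 6.73) in 9 plasma-positive cells. Atf3 was 9.53-fold higher (4.01 to 21.1) in 20 plasma-negative cells, where 7 of its 10 UMIs lay in 1 cell. In the plasma-positive library it was 66.9-fold higher (42.7 to 108), with 48 of its 87 UMIs in the highest cell. Ier2 was 4.67-fold (1.73 to 10.8) and 50-fold higher (14.4 to 218), and 7 of its 10 plasma-positive UMIs lay in 1 cell. Atf3, Ier2 and Junb were thus high together with the other rule genes in both libraries. Egr1 had 7 UMIs against 0 and 25 against 2, with 22 of the 25 in the highest cell. Fos (2 against 0, and 4 against 1), Fosb (2 against 0, and 0 against 0) and Dusp1 (2 against 3 in each) were too rare for a firm ratio. Each low count is a sum over 20 low cells for each chosen cell. As CPM, Dusp1 was therefore 13.3-fold higher (1.11 to 116) in each library. Plasma-positive Fos was 80.0-fold higher (7.91 to 3937).

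For all other genes each rule cell was paired with 1 unused low cell, meaning a cell with at most 1 rule-gene UMI, whose total outside the rule genes lay nearest and within 10%. All 30 and 22 rule cells found a partner, and UMIs were summed and expressed as CPM of the UMIs outside the rule genes. Of 3600 genes at 50 CPM or more in at least 1 of the groups of each library, 352 (9.78%) were at least 1.5-fold higher in the rule cells in both libraries and 207 (5.75%) at least 1.5-fold lower. In a single library, 27% and 26.4% were higher and 21.7% and 21.7% lower by that measure. When the totals excluded mitochondrial and ribosomal genes, the counts were 315 higher and 285 lower. With low cells defined by a share below 0.1% they were 276 higher and 245 lower, so the split between higher and lower genes depends on these choices. Counts were small, and 46 of the 352 higher genes drew at least 50% of their UMIs from 1 cell in at least 1 library. A second comparison therefore used 20 low cells for each rule cell (600 and 420 cells), in which 233 (6.65%) of 3503 genes were higher and 132 (3.77%) lower in both libraries. The deepest plasma-positive rule cell, with 10931 UMIs, had too few low cells of its depth and is left out of that second comparison. Both comparisons share their rule cells, and 157 of the 352 genes were higher in both.

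The chemokine genes Ccl4 and Ccl3 stood furthest apart. They encode MIP-1β and MIP-1α, secreted proteins that draw in leukocytes, and lie side by side on chromosome 11 (Ccl3 at 83647844 to 83649355 on the minus strand, Ccl4 at 83662584 to 83664683 on the plus strand, mouse build GRCm38, GENCODE M21). Ccl4 gave 234 UMIs in 12 of the 30 plasma-negative rule cells and 0 in the 30 paired low cells, at least 77.9-fold more against a floor of 3 counts over the group. In the plasma-positive library it gave 781 UMIs in 10 of the 22 rule cells against 1 in the low cells, a ratio of 781 (140 to 30892). Against the 20 low cells each it was 390-fold (219 to 766) and 748-fold higher (442 to 1380). Ccl3 gave 118 UMIs against 0, at least 39.3-fold more, and 218 against 1, a ratio of 218 (38.7 to 8651). Against 20 low cells each Ccl3 was 215-fold (116 to 442) and 387-fold higher (192 to 913). In no cell of the paired low groups did Ccl3 and Ccl4 together reach 3 UMIs.

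These chemokine transcripts came from a minority of the rule cells. At least 3 UMIs of Ccl3 and Ccl4 together were found in 9 of 30 plasma-negative rule cells (30%, 14.7 to 49.4%) and in 10 of 22 plasma-positive ones (45.5%, 24.4 to 67.8%). Among the 20 low cells each they were found in 1 of 600 and 2 of 420, and among all kept cells in 53 of 9860 (0.538%) and 81 of 10362 (0.782%). Per rule cell the sum ran from 0 over a median of 0 to 139 in the plasma-negative and from 0 over a median of 0 to 320 in the plasma-positive library. Most cells with 3 or more Ccl3 and Ccl4 UMIs did not meet the rule. Of the cells with at least 20 such UMIs, however, 6 of 11 plasma-negative (54.5%) and 9 of 24 plasma-positive ones (37.5%) were rule cells.

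Within the rule cells the chemokines went with Atf3 or Egr1, a split chosen after the values were seen. The 29 rule cells with a UMI of Atf3 or Egr1 held 1344 UMIs of Ccl3 and Ccl4. Per cell, the median was 1 (range 0 to 139) in the 17 plasma-negative and 69 (range 0 to 320) in the 12 plasma-positive ones. The 23 cells with neither held 7, with a range of 0 to 3. At least 3 chemokine UMIs were found in 18 of the 29 cells, 8 plasma-negative and 10 plasma-positive, and in 1 of the 23. In the plasma-positive library all 999 UMIs lay in the 12 cells with Atf3 or Egr1 and 0 in the 10 without, and in the plasma-negative library 345 lay in 17 cells and 7 in 13. Jun and Junb went the other way, at 2080 CPM in the 29 cells and 3305 CPM in the 23, which follows in part from the rule, since cells without Atf3 and Egr1 had to meet it with the other genes. Cells with Atf3 or Egr1 were also deeper, with a median of 3425 against 2767 UMIs, and the part of depth in the split was not tested.

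The levels could also be read along the whole range of rule-gene UMIs, in all kept cells thinned to 2000 UMIs. Ccl3 plus Ccl4 stayed low, at 16.7, 28.4, 17.3 and 22.2 CPM in plasma-negative cells with 0, 1, 2 and 3 rule-gene UMIs. They stood at 112 CPM in the 251 cells with 4 or 5 and at 1656 CPM in the 48 cells with 6 or more. In plasma-positive cells the levels were 24.1, 40.0, 41.5 and 29.7 CPM, then 259 CPM in 199 cells and 4434 CPM in 38 cells. The summed chemokine level thus departed only above 3 rule-gene UMIs, in both libraries, and few cells carried it. With 6 or more, at least 3 Ccl3 and Ccl4 UMIs were found in 6 of 48 plasma-negative cells (12.5%, 4.73 to 25.2%). In the plasma-positive library they were found in 9 of 38 (23.7%, 11.4 to 40.2%). With 4 or 5 rule-gene UMIs they were found in 5 of 251 and 4 of 199 cells. Nfkbia and Cd83 were higher in the last group than in the first, going from 141 to 250 CPM and 61.0 to 250 CPM in plasma-negative cells, and from 122 to 342 CPM and 64.8 to 329 CPM in plasma-positive cells. Ier5 went from 208 to 385 CPM and from 211 to 408 CPM, and Btg2 from 197 to 281 CPM and from 184 to 303 CPM.

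**Figure D2:**
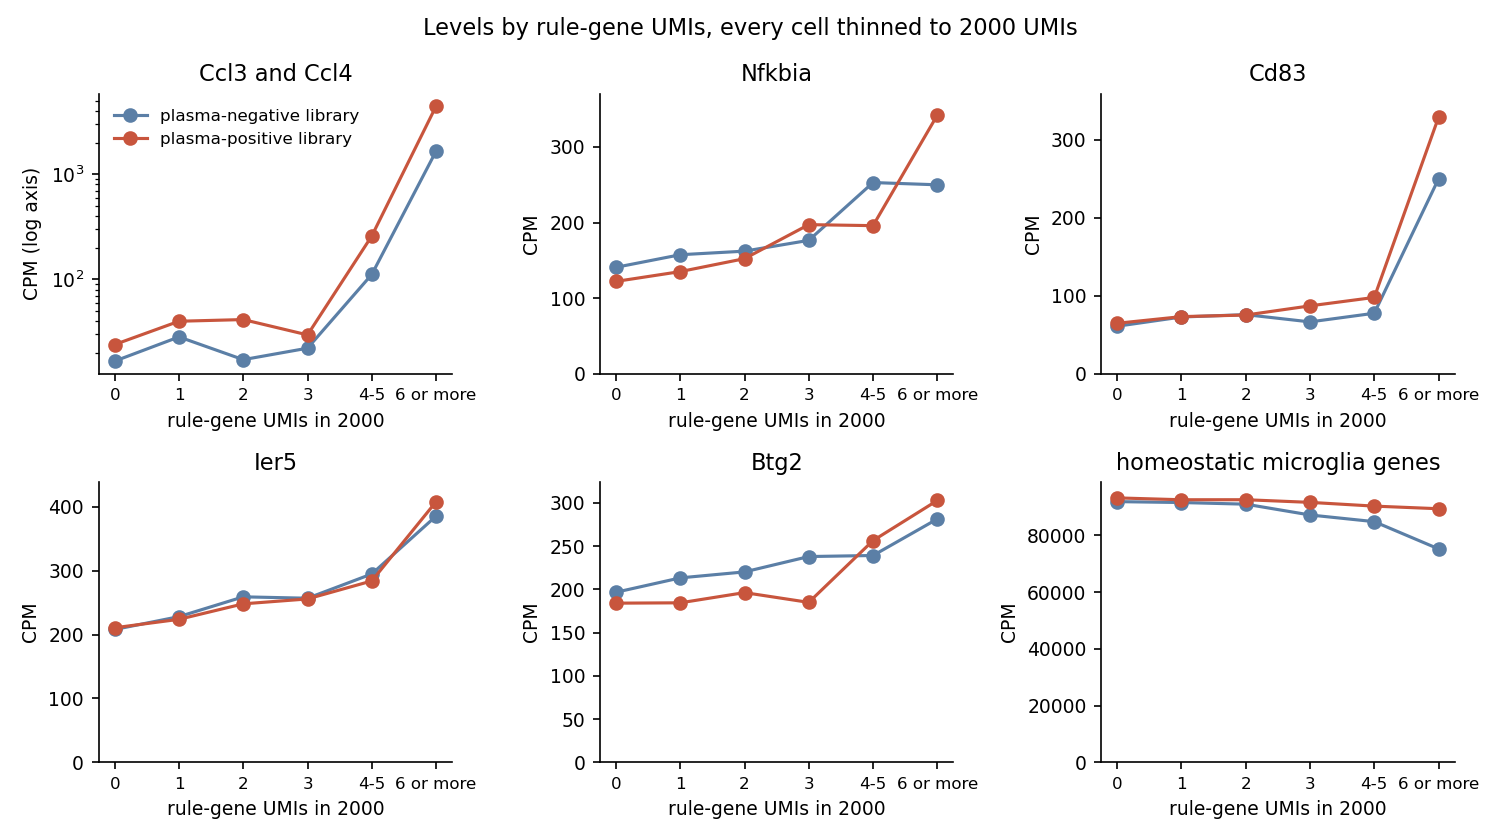
Levels in CPM (log axis for Ccl3 and Ccl4, linear axes from 0 for the rest) by the number of rule-gene UMIs in 2000, for all cells of at least 2000 UMIs; points are sums over cells of 1 library and carry no error bars. Ccl3 and Ccl4 stay below 50 CPM up to 3 rule-gene UMIs and reach 1656 and 4434 CPM at 6 or more, where 12.5% and 23.7% of cells had at least 3 of their UMIs. The homeostatic list goes from 91845 to 75198 CPM in the plasma-negative and from 93158 to 89342 CPM in the plasma-positive library.

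The chemokine Ccl12, a ligand of CCR2, gave 72 UMIs against 15 in the plasma-negative library, 4.80-fold (2.72 to 9.01), and 140 against 30 in the plasma-positive one, 4.67-fold (3.13 to 7.17). With 20 low cells each, plasma-positive Ccl12 was 3.10-fold higher, and in thinned cells its log2 value was 1.19. Of 11 chemokine genes listed, 6 reached 10 CPM in at least 1 of the groups of each library, and 3 of the 6 (Ccl3, Ccl4, Ccl12) were higher in both libraries, where 9.92% of 4353 genes at that minimum were higher and 6% lower. A gene needed that minimum in only 1 of the groups, so one detected mainly in rule cells could hardly be counted as anything but higher, in this list and in those below. Ccl2, the main monocyte attractant, had 3 UMIs in the plasma-negative and 104 in the plasma-positive rule cells, and 0 in the paired low cells of both. Ccl6, a chemokine that microglia hold at rest, was 0.823-fold and 2.0-fold. As sums, the chemokine list was 9.47-fold higher (7.03 to 13) and 9.47-fold higher (7.93 to 11.4). The plasma-positive value was set by 1 low cell with 75 UMIs of Ccl5, a chemokine at 0 UMIs in the rule cells, and without Ccl5 it was 21.8-fold (16.8 to 28.8). In thinned cells the log2 values of the chemokine list were 2.32 and 2.87.

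Genes tied to NF-κB, the transcription factor of inflammatory signalling, were the second group. Of 18 genes, 10 could be compared and 8 were higher in both libraries (Nfkbia, Relb, Tnfaip3, Tnf, Il1a, Icam1, Birc3 and Cd83), beside the 9.92% over all genes. Nfkbia, which encodes the inhibitor that holds NF-κB in the cytoplasm, gave 80 UMIs against 10 (7.99-fold, 4.13 to 17.3) and 39 against 7 (5.57-fold, 2.46 to 14.8). One plasma-negative rule cell held 45 of the 80, and without it Nfkbia was 3.89-fold higher (1.83 to 9.19). Cd83, a membrane protein of activated antigen-presenting cells, gave 25 UMIs in 11 cells against 3, a ratio of 8.33 (2.54 to 43.1), and 51 in 15 cells against 7, 7.29-fold (3.29 to 19.0). Icam1, an adhesion molecule, was 3.90-fold (1.91 to 8.75) higher, and in the plasma-positive library its 18 UMIs stood against 2, a ratio of 9.0 (2.16 to 80.0). With 20 low cells each, plasma-positive Icam1 was 2.02-fold higher (1.13 to 3.39), and with low cells of 0 rule-gene UMIs its log2 value was 0.71 (-0.45 to 1.94). Without the cell just named Icam1 was 2.50-fold higher in the plasma-negative library. Il1a, the gene of interleukin-1α, gave 13 UMIs against 4 and 32 against 3. Tnf had only 5 and 6 UMIs in the rule cells, against 7 UMIs in the 600 and 8 in the 420 low cells, which is 14.3-fold (3.58 to 52.3) and 15-fold (4.29 to 49.3). Summed, the list was 3.77-fold (2.89 to 4.98) and 5.22-fold higher (3.85 to 7.22), and 2.45-fold (1.83 to 3.32) in the plasma-negative library without that 1 cell. In cells thinned to 2000 UMIs the log2 values of the list were smaller, 0.74 and 1.33, and that of plasma-negative Nfkbia was 0.76. Over both libraries the list stood at 3426 CPM in rule cells with Atf3 or Egr1 and at 1865 CPM in those without. Both values lay above the 771 and 545 CPM of the paired low cells. The median per 10000 UMIs was 31.9 with and 13.8 without in the plasma-positive library. In the plasma-negative library it was 17.6 with and 20.0 without, and the 1 cell named above held 102 of the list's 264 UMIs.

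Immediate early genes that the rule had not used were higher as well. Of 31 listed, 8 could be compared and 6 were higher in both libraries, Jund, Klf6, Ier3, Ier5, Btg2 and Rhob, beside 9.92% over all genes. As a sum the list was 2.34-fold (1.92 to 2.86) and 2.32-fold higher (1.89 to 2.85), and in thinned cells its log2 values were 0.58 and 0.72. Ier5, an early response gene, gave 53 UMIs in 21 cells against 15 (3.53-fold, 1.96 to 6.74) and 52 in 16 cells against 13 (4.0-fold, 2.15 to 8.01), with log2 values of 0.84 and 0.93 in thinned cells. Btg2, an antiproliferative gene of the early response, was 2.77-fold (1.43 to 5.69) and 3.18-fold higher (1.81 to 5.85). Klf6, a Krüppel-like factor, was 6.99-fold higher (3.15 to 18.3) in plasma-negative cells and 1.73-fold (0.781 to 4.02) in plasma-positive cells. Jund, another Jun protein, was 1.81-fold and 2.10-fold. Rhob, a small GTPase and the most abundant gene of the list, was 1.56-fold (1.12 to 2.18) and 1.5-fold (0.989 to 2.30), and with 20 low cells each 1.57-fold and 1.11-fold, so it passed the 1.5-fold limit only narrowly. Egr2 and Egr3, the close relatives of Egr1, had 14 and 8 UMIs in plasma-positive rule cells, 9 and 8 of them in a single cell.

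Genes that end the response formed a smaller group. Of 24 feedback and mRNA decay genes, 11 could be compared and 3 were higher in both libraries, beside 9.92% over all genes. The sum was 1.89-fold (1.56 to 2.30) and 1.89-fold higher (1.54 to 2.32), but in thinned cells the log2 values were 0.22 and 0.42. Zfp36, whose protein (tristetraprolin) marks AU-rich mRNAs such as Tnf for decay, gave 16 UMIs against 6 (2.66-fold, 0.990 to 8.31) and 21 against 4 (5.25-fold, 1.77 to 21). Rgs1, which damps chemokine receptor signalling, gave 15 UMIs against 2 and 41 against 1, but 12 of the 15 and 25 of the 41 came from 1 cell each. Gadd45b gave 9 and 10 UMIs against 0, with 8 and 9 of them in 1 cell each. Mcl1, the most abundant member and an inhibitor of cell death, was 2.60-fold (1.62 to 4.30) and 1.40-fold (0.856 to 2.32). The kinases and factors upstream of these genes (Elk1, Creb1 and others) showed no such shift, with 1 of 11 higher in both (Mapkapk2) and sums of 1.32-fold (1.01 to 1.74) and 0.982-fold (0.746 to 1.29).

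Among stress genes the endoplasmic reticulum and integrated stress list had 3 of 4 compared members higher in both libraries, beside 9.92% over all genes, with a sum of 2.08-fold (1.46 to 3.0) and 2.22-fold (1.49 to 3.36). In the plasma-negative library the list stood at 1813 CPM in the 14 rule cells with less than 0.5% mitochondrial UMIs and at 632 CPM in the other 16, against 557 CPM in low cells at or above 0.5%. Herpud1, an endoplasmic reticulum quality control gene, was 2.64-fold (1.39 to 5.29) and 2.50-fold higher (1.31 to 5.03). Ddit3, the gene of the stress factor CHOP, gave 19 UMIs against 4 and 10 against 2, and Atf4, the factor above it, 18 against 5 and 9 against 4. Gdf15, a secreted stress cytokine, had 20 UMIs against 0, at least 6.66-fold more, and 99 against 0, at least 33.0-fold more, but 18 of the 20 and all 99 lay in 1 cell each. Heat shock and chaperone genes had 1 of 8 higher (Hspa8), with sums of 1.51-fold (1.28 to 1.80) and 1.25-fold (1.05 to 1.5). Glucocorticoid response genes had 1 of 3 higher (Sgk1), with sums of 1.73-fold and 1.60-fold. Of the p53 targets 1 of 3 was higher (Bbc3). Counts of 1 in 8 and 1 in 3 members are too small to set apart from the 9.92%. Cdkn1a, another listed target and the gene of the cell cycle inhibitor p21, gave 24 UMIs in 9 of 30 plasma-negative rule cells against 0 in the paired low cells, at least 7.99-fold more, and 3 UMIs against 1 in the plasma-positive library. At least 3 UMIs of Cdkn1a were found in 3 of 30 plasma-negative rule cells (10.0%, 2.11 to 26.5%), in 2 of 600 low cells (0.333%), and in 0 of 22 plasma-positive rule cells, which allows a share of up to 13.6%.

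**Figure D3:**
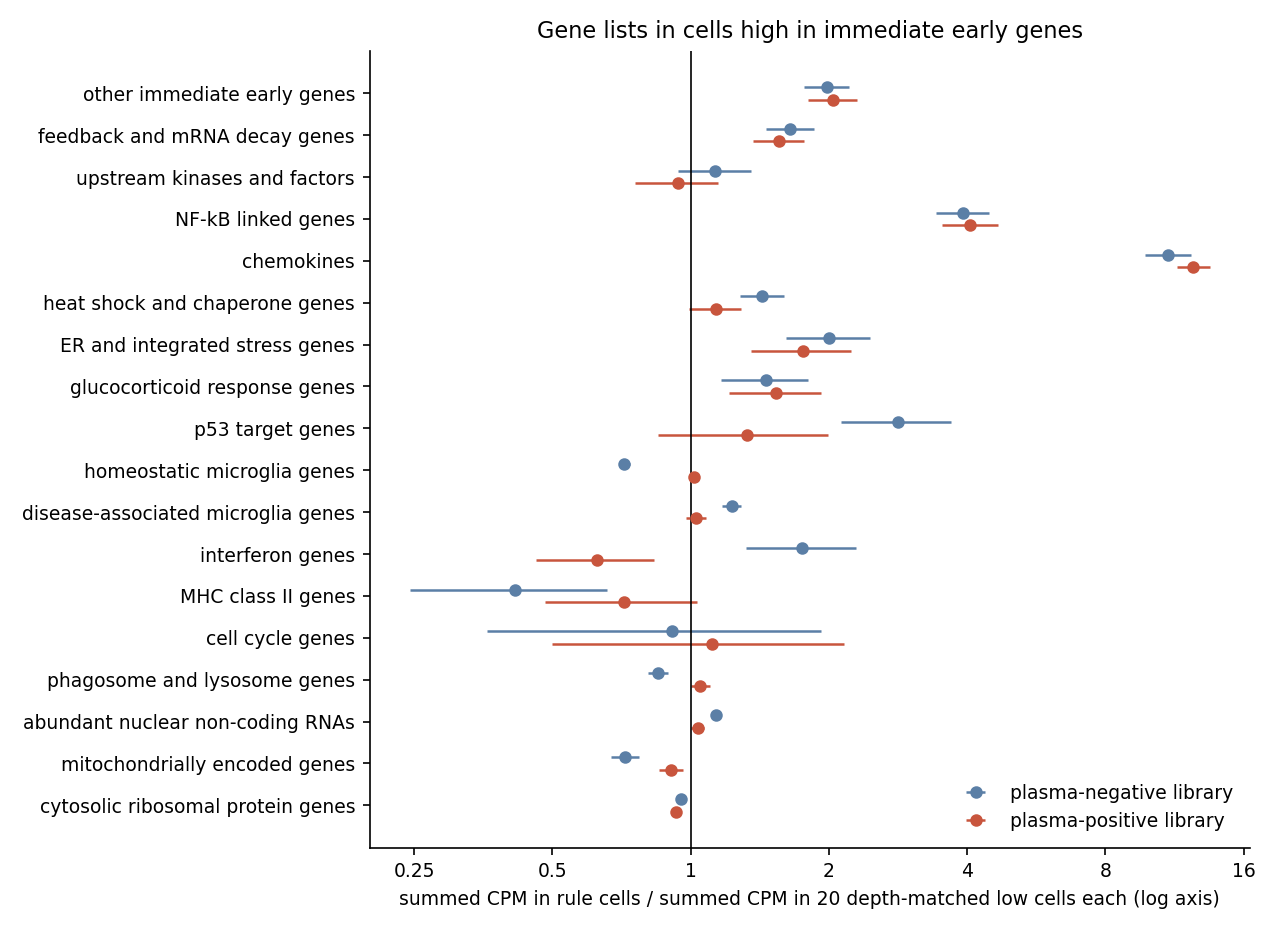
Summed level of each gene list in the rule cells over that in 20 depth-matched low cells each, on a log axis, with 95% counting intervals as bars, for the plasma-negative (blue) and plasma-positive library (red). Chemokines (11.0-fold and 12.4-fold) and NF-κB linked genes (3.92-fold and 4.07-fold) lie furthest to the right in both libraries, and the interferon list falls on opposite sides of 1.

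The 20 genes furthest above the low cells in both libraries by the smaller of the 2 folds were Ccl4, Ccl3, Rgs1, Cd83, Ssrp1, Gdf15, Nfkbia, Lpl, Cfap20, Zfyve26, Atp9b, Relb, Ddit3, Ccl12, Hspa9, Nmd3, Id2, Icam1, Ier5 and Armc1. Id2, an inhibitor of helix-loop-helix factors, gave 14 UMIs against 1 and 16 against 4. Lpl, lipoprotein lipase, gave 19 against 2 and 16 against 3, with 14 of the 19 in 1 cell. Ssrp1, Cfap20, Zfyve26, Atp9b, Relb, Hspa9, Nmd3 and Armc1 had between 5 and 15 UMIs in the rule cells of a library, and their place in the list rests on those few counts. In thinned cells Rgs1, Relb, Atp9b, Armc1 and Ssrp1 were lower, not higher, in at least 1 library. The 10 genes furthest below were Cdkn1c, Helz, Eif1ad, Fam96a, Tmem9b, Bscl2, Mfhas1, Nf2, Cog8 and Eif2a, with 1 to 4 UMIs in the rule cells and 5 to 15 in the low cells, and in thinned cells Cdkn1c, Eif1ad, Fam96a and Nf2 were higher in at least 1 library. No gene with many counts was far lower in both libraries.

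**Figure D4:**
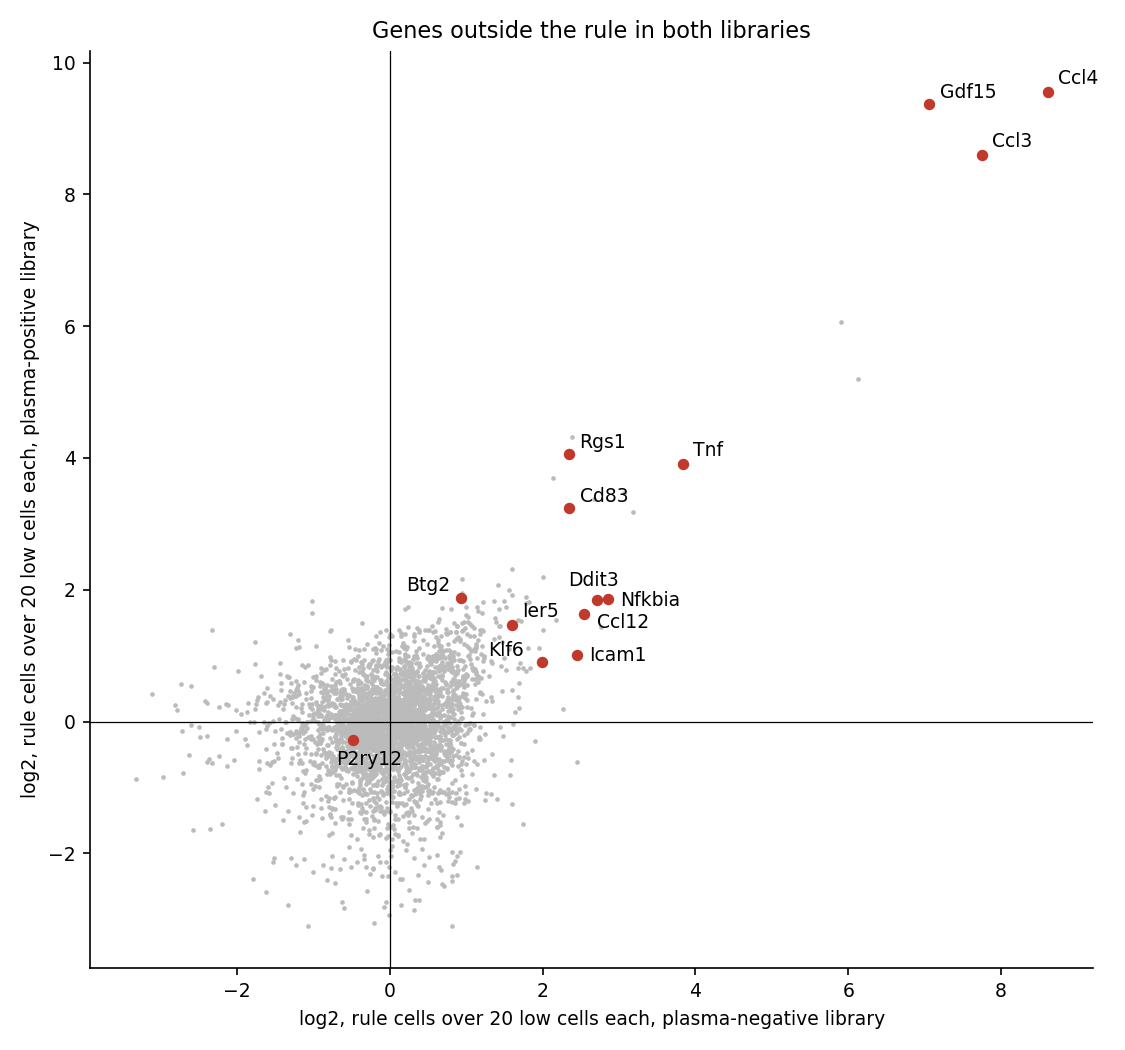
Each point is 1 of 3503 genes outside the rule, placed by its log2 ratio of rule cells over 20 low cells each in the plasma-negative (horizontal) and plasma-positive library (vertical), with some of the genes named in the text in red. Ccl4 (8.61 and 9.55), Ccl3 and Gdf15 lie far up the diagonal; Gdf15 is a lower bound on both axes and rests on 1 cell in each library for most of its UMIs.

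Among microglial identity genes a difference between the libraries lay largely in 1 gene against the single partners, and only in part against 20 low cells each. The homeostatic list (16 genes, all compared) was 0.719-fold (0.695 to 0.743) in plasma-negative and 0.95-fold (0.922 to 0.979) in plasma-positive rule cells. With 20 low cells each it was 0.717-fold and 1.02-fold (0.995 to 1.04). No member passed 1.5-fold in both libraries, beside 9.92% higher and 6% lower over all genes, and the list is too short to be set apart from those shares. Cst3, the cystatin C gene and the most abundant member, was 0.591-fold in the plasma-negative library (2933 UMIs against 4958) and 0.967-fold in the plasma-positive library (5283 against 5467). The other 15 genes of the list summed to 0.922-fold (0.876 to 0.970) and 0.923-fold (0.879 to 0.969), and with 20 low cells each to 0.831-fold (0.801 to 0.863) and 0.960-fold (0.924 to 0.997). P2ry12, the purine receptor of resting microglia, was 0.858-fold and 0.831-fold, and Cx3cr1, the fractalkine receptor, 0.954-fold and 0.855-fold. Per cell, the list's median per 10000 UMIs was 627 in plasma-negative rule cells against 900 in their partners, and 885 against 898 in the plasma-positive library.

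RNA quality also differed between the libraries' rule cells. The median mitochondrial share was 0.736% in plasma-negative rule cells, 1.60% in their partners and 1.13% in the 20 low cells each, and 1.12%, 1.69% and 1.31% in the plasma-positive library. A share below 0.5% was found in 14 of 30 plasma-negative rule cells (46.7%) against 16.5% of the 600 low cells, and in 2 of 22 plasma-positive ones (9.09%) against 6.67% of the 420. Malat1, a nuclear RNA, took a median of 8.56% of UMIs in plasma-negative rule cells against 5.96% in their partners, and 4.89% against 4.89% in the plasma-positive library. Among plasma-negative rule cells the homeostatic list was at a median of 339.5 per 10000 in the 14 cells below 0.5% and at 731 in the other 16. In low cells the same division gave 830 and 866. Ccl3 and Ccl4 reached 3 UMIs in 5 of the 14 and 4 of the 16 cells, so the chemokines were present on both sides. Other lists were higher in the 14 cells than in the 16. The NF-κB list stood at 4715 against 1716 CPM, but 1 of the 14 cells held 102 of its UMIs. Its medians per 10000 UMIs were closer, 22.5 and 17.1. The other immediate early genes stood at 4938 against 2891 CPM, with medians of 55.0 and 27.7. The feedback genes stood at 4631 against 2530 CPM, with medians of 41.8 and 22.6. The p53 targets stood at 1283 against 289 CPM. The part of RNA quality in these differences was not tested.

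Other microglial states were found in some rule cells. Genes of antigen presentation by MHC class II summed to 0.391-fold (0.213 to 0.688) and 0.635-fold (0.397 to 1.00), with a plasma-positive log2 value of 0.12 in thinned cells, and at least 3 of their UMIs were found in 0 of 30 rule cells, which allows a share of up to 10%, and in 6 of 22, against 8 of 30 and 9 of 22 partners. Among the 20 low cells each they were found in 20.8% of 600 and 29.0% of 420, close to the 27.3% (10.7 to 50.2%) of the plasma-positive rule cells. H2-DMa, a peptide-loading chaperone, gave 7 UMIs against 24 and 21 against 27. H2-DMb1, its partner chain, was the 1 of 3 compared members lower in both libraries, beside 6% over all genes. Cell cycle genes were rare in rule and low cells alike. At least 3 of their UMIs were found in 0 of 30 rule cells, which allows a share of up to 10%, and in 1 of 22. They were found in 0 of 30 and 0 of 22 partners, and in 1% of the 600 and 0.714% of the 420 low cells. The sums were 1.40-fold (0.382 to 5.59) and 1.25-fold (0.444 to 3.65). Phagosome and lysosome genes had 0 of 13 members past 1.5-fold in both libraries, beside 9.92% higher and 6% lower over all genes. The list is too short to set 0 apart from those shares. Its sums were 0.804-fold (0.751 to 0.860) and 1.03-fold (0.970 to 1.10). Disease-associated microglia genes had 1 of 9 higher (Lpl), beside 9.92% over all genes, and so small a count cannot be set apart from that share. Their sums were 1.06-fold (0.991 to 1.13) and 0.861-fold (0.807 to 0.919). The plasma-negative value was 0.761-fold (0.706 to 0.820) without the 1 rule cell that held 495 UMIs of Fth1, the ferritin heavy chain gene. At least 3 Apoe UMIs were found in 4 of 22 plasma-positive rule cells (18.2%, 5.19 to 40.3%), against 16.2% of the 420 low cells, and in 0 of 30 plasma-negative ones, against 4.5% of 600. Interferon genes summed to 1.79-fold (1.15 to 2.82) and 0.716-fold (0.494 to 1.03). A single cell held 28 of the 59 plasma-negative UMIs, and without each gene's highest cells that log2 value was -0.00103.

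Of 4484 genes compared between the 22 plasma-positive and the 30 plasma-negative rule cells, 919 (20.5%) were at least 1.5-fold higher and 1415 (31.6%) lower in the plasma-positive ones. Between all low cells of the 2 libraries, 5891 and 5871 cells, 6 of 3510 genes (0.171%) were higher and 0 lower, so the share past 1.5-fold was far larger where few cells were summed. The 5 genes furthest higher were Apoe, Ccl2, Il1b, Rcan1 and Osm. Apoe, the lipid carrier gene, gave 172 UMIs in 8 plasma-positive rule cells, 127 of them in 1 cell, against 2 UMIs in the plasma-negative ones, a ratio of 85.2 (23.2 to 710). Apoe differed in the same direction between all low cells, with 1332 CPM in plasma-positive and 182 CPM in plasma-negative ones, so its difference is not particular to the rule cells. Ccl2 gave 104 UMIs in 8 cells against 3, a ratio of 34.4 (11.4 to 169), and stood at 9.57 against 1.93 CPM in low cells. Il1b, the gene of interleukin-1β, gave 42 UMIs in 6 cells against 2, a ratio of 20.8 (5.41 to 178), and 3.11 against 1.46 CPM in low cells. Rcan1, a calcineurin inhibitor, and Osm, the cytokine oncostatin M, had 16 and 10 UMIs against 1 each. The 5 genes furthest lower were Gclm, Lilr4b, Gm13889, Tnfaip2 and Ddhd2, with 1 UMI each in the plasma-positive rule cells against 10 to 28 in the plasma-negative ones, and 22 of the 28 UMIs of Gclm and all 21 of Lilr4b lay in 1 cell. With 1 library per sort, the sort and the library cannot be told apart.

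Promoters were searched for 4 short motifs that serve these pathways, in windows from 250 bases before to 50 after the start of transcription (RefSeq, GRCm38.p6): the CArG box of serum response factor, the cyclic AMP response element TGACGTCA, the AP-1 site TGACTCA and the NF-κB site, on both strands. The NF-κB site was added after the values were seen. Over 32851 promoters, 1.63% held a CArG box, 1.79% the cyclic AMP element, 5.20% an AP-1 site and 4.51% an NF-κB site. Of 29 genes looked up, rule genes and genes higher in the rule cells, 22 had an entry and 9 of these held a match before the start. The shares over all promoters count each motif alone and over the whole window. No share of promoters with any of the 4 motifs before the start was counted, so the 9 of 22 has no like value beside it. Among the 9 were the rule genes Dusp1, Fos and Fosb, and Jun, Junb and Atf3 had no match to these letters. The 4 sequences below were picked because 3 of the genes were higher in rule cells of both libraries (Nfkbia, Btg2 and Zfp36) and the other is the rule gene Dusp1; capitals mark the match, and each is written 5′ to 3′ on the strand of its gene.
Nfkbia, NF-κB site, chr12:55492651-55492692, minus strand, 20 bases before the start: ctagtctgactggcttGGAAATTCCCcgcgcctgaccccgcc
Btg2, cyclic AMP element, chr1:134079298-134079337, minus strand, 159 bases before the start: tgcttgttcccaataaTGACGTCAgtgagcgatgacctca
Zfp36, CArG box, chr7:28379261-28379302, minus strand, 49 bases before the start: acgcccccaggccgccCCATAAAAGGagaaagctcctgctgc
Dusp1, cyclic AMP element, chr17:26508592-26508631, minus strand, 136 bases before the start: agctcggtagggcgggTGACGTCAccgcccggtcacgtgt
Nfkbia gave 80 and 39 UMIs in the rule cells and Btg2 36 and 54, whereas Dusp1, with the same 8 bases as Btg2, gave 2 and 2. A match to letters is a description and shows no binding.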

How the data were processed

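The authors deposited unnormalized UMI counts for every gene in every cell. The file headers record Cell Ranger 6.1.2, whereas the submitters' processing notes name version 3.0.1. The genome build, annotation, use of strand and cell calling settings are not given in the sources used here. Cell barcodes were not used here, so barcodes shared between the libraries were not counted. Scrublet (scanpy 1.11.5) called 0 doublets in either library, where 7.89% and 8.29% were expected, so its calls were not relied on. The 778 and 859 highest-scoring cells were removed only as an alternative. They included 1 of 30 plasma-negative and 0 of 22 plasma-positive rule cells, and 0 of 30 and 5 of 22 paired low cells. The rule cells, gene lists and comparisons were chosen with earlier results of these data known. Ratios of summed counts carry exact conditional intervals and shares exact Clopper-Pearson intervals, at 95% (scipy 1.17.1, numpy 2.4.6, pandas 2.3.3). Where a share was 0, the limit given is 3 cells of the total instead. A group at 0 was set to a floor of 3 counts over the group, and a ratio against it is a lower bound. Genes were named by a rule: all rule genes, the 20 highest and 10 lowest by the smaller of both libraries' ratios, the most abundant members of each list, and the 5 highest and 5 lowest between the sorts; other members named were chosen after their values were seen. Calculations were tested on simulated data. Coordinates come from GENCODE M21 (GRCm38) by gene identifier, and that build need not be the authors'. Alternatives are given in the closing section.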

Additional observations from a re-analysis of the deposited data

Results flagged for a closer look

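The interferon list went in opposite directions in the 2 libraries, 1.79-fold in plasma-negative and 0.716-fold in plasma-positive rule cells over their paired low cells, and the difference was not tested. The plasma-negative sum was 59 UMIs against 33, and 1 rule cell held 28 of the 59. With each gene's highest cells left out the plasma-negative log2 value was -0.00103. At least 3 interferon UMIs were found in 5 of 30 plasma-negative rule cells (16.7%, 5.64 to 34.7%) and in 2 of 30 partners, and in 5 of 22 plasma-positive rule cells and 5 of 22 partners.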

How the results depend on the processing

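No paired analysis of libraries was possible because neither group had a second library, which also left no replicate to leave out. Cells were paired by depth within a library only, and nothing was tested. Over 18 other settings (15 planned, 3 added after seeing the data), 46 of 64 values that answer a comparison stayed within their counting interval or within 1.5 times the count, and 18 moved. The share of rule cells was 1.24% and 0.782% (plasma-negative, plasma-positive) at a limit of 0.2%, and 0.0304% and 0.0386% at 0.5%. In cells thinned to 2000 UMIs it was 0.582% and 0.417%. With at least 10 rule-gene UMIs, 13 plasma-negative cells (0.132%) and 16 plasma-positive cells were left. Genes higher and lower in both libraries, 352 and 207 in the report, numbered 48 and 57 at 0.5%, 190 and 112 in thinned cells, 45 and 13 at 200 CPM, and 233 and 132 with 20 low cells each. Of those higher, 18 of 48, 47 of 190, 45 of 45 and 157 of 233 were among the 352. Like counts could also hold other genes. With low cells of 0 rule-gene UMIs 208 of 355 were among the 352, and with low cells below 0.1% 187 of 276. With at least 1000 UMIs per cell 347 of 352 were. Without pairing 137 genes were lower. At 200 CPM, 127 genes were higher and 150 lower in plasma-positive rule cells. Of 1415 values for single genes and lists, 1298 stayed the same, 101 moved and 16 changed direction. Thinned, in the plasma-negative library, the log2 values that turned were -0.18 for Rgs1, -0.15 for Atp9b, -1.33 for Relb, -0.26 for Armc1, 0.63 for Cdkn1c, 0.76 for Eif1ad and 0.26 for Nf2. In the plasma-positive library they were 0.12 for the MHC class II list, -0.31 for Ssrp1, -0.60 for Atp9b, -0.26 for Armc1, 0.47 for Fam96a and 1.26 for Nf2. Nf2 also turned without pairing (0.13, plasma-negative), Atp9b with 20 low cells each (-0.24, plasma-positive) and the interferon list without each gene's highest cells (-0.00103, plasma-negative). The genes that turned rest on few UMIs, and the cause was not tested. Thinned cells are also a different set, 48 and 38 cells in place of 30 and 22. Fos, Fosb and Dusp1 were too rare at this depth for a firm ratio, and a gene at 0 in the rule cells may be present below 3 UMIs.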

Other observations

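One plasma-negative rule cell stood apart from the others. Among 6332 UMIs it had 25 of the rule genes (14 Junb, 8 Atf3, 2 Jun, 1 Dusp1), 0.0790% mitochondrial UMIs and 5 of the 11 microglia markers. It held 495 UMIs of Fth1 and 139 of Ftl1, the ferritin chains, where low cells of its depth averaged 18.3 and 9.45. Genes of the oxidative stress response were high in it, with 72 UMIs of Prdx1, 22 of Gclm, 15 of Txn1, 15 of Sqstm1 and 13 of Txnrd1. It also held 45 UMIs of Nfkbia, 14 of Traf1 and 13 of Cxcl2, and the other 29 plasma-negative rule cells had 35, 0 and 0 UMIs of these genes. It was found and described after its values were seen.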
